A study of Mus musculus with 6 samples.

Results

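The genes described here are the zinc-finger transcription factors Egr1, Egr2 and Egr3 and the corepressors Nab1 and Nab2. They were taken by symbol from a table of read counts, in which all 5 were found among 48397 genes, and Egr4, the remaining member of the Egr family, is shown beside them. The counts come from stage 0 iNKT cells, the first thymic precursors of invariant natural killer T cells after positive selection. There were 3 libraries of BALB/c mice, wild type for Zap70, and 3 of SKG mice, which carry a hypomorphic mutation of the TCR-proximal kinase Zap70 on the same BALB/c background. Mice of both genotypes were 8 to 10 weeks old, and no other allele or treatment is named in the labels. Each library was made from about 1000 cells sorted from the pooled thymi of 3 mice, so that a replicate is a pool and not an animal. The gate took thymocytes that bound the PBS57-loaded CD1d tetramer, carried CD24 and CD69, lacked CD44 and CD8 and were low or negative for CD4.

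Egr proteins are immediate-early factors that recognise a short GC-rich DNA motif. In thymocytes they are induced within a short time of TCR engagement, through the Ras-ERK pathway acting on serum response factor and its Ets-family partners, and through calcium and NFAT. Egr1 and Egr2 are both known from iNKT cell development, and Egr2 is needed for it and acts on Zbtb16, which encodes PLZF. Nab1 and Nab2 have no DNA-binding domain. They dock on the repressor domain of Egr1, Egr2 and Egr3 and bring in the NuRD chromatin complex, and since Nab2 is itself induced by Egr factors the pair is known as a brake on Egr activity. Egr4 lacks the docking site for the Nab proteins.

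The promoters of Egr2 and Nab1 are printed to show the elements through which serum response factor and Egr proteins could be recognised by sequence. They were taken from RefSeq promoters of GRCm38.p6, which hold Egr2, Nab1, Nab2 and Egr4 but not Egr1 and Egr3. Both strands were searched for the Egr motif (GCGTGGGCG or GCGGGGGCG), the CArG box bound by serum response factor, the cAMP response element TGACGTCA and the GC box GGGGCGGGG, from 250 bases before to 50 after each start. Capitals mark the matches in the 250 bases before the start, written 5′ to 3′ on the strand of the gene.
Egr2, chr10:67537619-67537868, plus strand, with a CArG box whose first base lies 72 bases before the start: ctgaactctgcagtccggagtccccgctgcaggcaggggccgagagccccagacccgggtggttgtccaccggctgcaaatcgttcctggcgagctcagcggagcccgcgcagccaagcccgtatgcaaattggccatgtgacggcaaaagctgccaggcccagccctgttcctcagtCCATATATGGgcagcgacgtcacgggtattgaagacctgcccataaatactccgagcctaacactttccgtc
Nab1, chr1:52500449-52500698, minus strand, with Egr motifs whose first bases lie 141, 109 and 38 bases before the start and GC boxes: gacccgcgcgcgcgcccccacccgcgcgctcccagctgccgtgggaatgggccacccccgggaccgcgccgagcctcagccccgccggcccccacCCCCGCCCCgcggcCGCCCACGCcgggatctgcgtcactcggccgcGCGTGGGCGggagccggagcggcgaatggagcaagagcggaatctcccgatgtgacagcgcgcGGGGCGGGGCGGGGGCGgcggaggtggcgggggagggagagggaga

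A CArG box was present in 1.63% of 32851 promoters in the same collection, an Egr motif in 3.47%, a cAMP response element in 1.79% and a GC box in 11.4%. The GC boxes of Nab1 begin 155, 46 and 41 bases before the start, and the last of them overlaps both its neighbouring GC box and the last Egr motif. Another Egr2 start, at 67537566, has its own CArG box at the same distance of 72 bases and a GC box. The starts at 67537870 and 67537930 share the printed CArG box, and the start at 67535499 had 0 matches. Egr2 thus had several windows, and counted per gene a CArG box was present in 1.81% of 27025 genes. In the single windows of Nab2 and Egr4, 0 matches to the listed letters were found. The Nab2 window belongs to a start at 127666703, which lies inside the gene as annotated here. Its annotated 5′ end, at 127668568 on the minus strand, was not searched. These matches describe the sequence, and binding was not measured.

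The reads counted on genes numbered from 37176544 to 43115544 per library. Expression is given as CPM, a gene's reads divided by the TMM-normalised size of its library, on the usual CPM scale of edgeR. Genes were compared with edgeR's quasi-likelihood test over 12312 genes with enough reads, all 5 members included, and calling a gene required a difference of 1.5-fold or more together with a Benjamini-Hochberg adjusted p (FDR) below 0.1. This test called 0 genes (0% of those tested), with 671 at an unadjusted p under 0.05. DESeq2 called 370 of the 14342 genes to which it gave an adjusted p (2.58%), and limma-voom called 0. Zap70 mRNA, which a change in the coding sequence need not alter and which therefore does not check the labels, was between 374 and 498 CPM in BALB/c and between 322 and 409 in SKG. T-cell markers were abundant, with Cd3e at 928 ± 153 CPM in BALB/c and 987 ± 69.5 in SKG (SD, n = 3). Cd69, a marker of the gate, was at 353 ± 39.9 CPM in BALB/c and 193 ± 50.4 in SKG (SD, n = 3), without overlap (edgeR, adjusted p = 0.686). Cd24a, the other positive stage marker, was at 25.1 ± 24.0 CPM in BALB/c and 70.4 ± 33.4 in SKG (SD, n = 3), with overlap (log2 fold change 1.49, edgeR adjusted p = 0.959). The part of these markers in the Egr results was not tested. Cd8a and Cd8b1, which the gate selects against, were still at 59.8 ± 53.6 and 54.3 ± 57.5 CPM in BALB/c and at 43.3 ± 19.9 and 28.5 ± 13.4 in SKG (SD, n = 3).

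Reads on marker genes of other cells differed between single libraries. The summed level of 8 double-positive thymocyte markers lay between 71.0 and 451 CPM in BALB/c and between 73.1 and 221 in SKG, with replicate 1 the highest of the BALB/c libraries and replicate 3 the highest of the SKG libraries. The same libraries were highest in their groups for 6 myeloid markers, at 53.7 and 118 CPM, with Cd14 at 0 reads throughout. Lyz2 made up most of these sums, at 53.7 and 107 CPM, and Csf1r, Itgam and Adgre1 had 0 reads in both libraries. For 6 B-cell markers the range was 1.73 to 6.84 CPM in BALB/c and 3.11 to 8.38 in SKG, where the highest value came from Cd79b alone. Thymic epithelial markers, of which Krt5 and Psmb11 had 0 reads, summed to between 33.7 and 106 CPM in BALB/c and between 57.6 and 93.9 in SKG. These sums lay almost wholly on Epcam and Ly75, with at most 3 reads of Foxn1 in any library. For these 4 lists the genotypes overlapped. Sums that rest on so few genes do not show how much RNA of a cell type was present. The part of other cells in the levels of Egr and Nab genes was not tested. Values without BALB/c replicate 1 and SKG replicate 3, a setting chosen after the data were seen, stand beside the results.

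Egr1, the prototype of the family, spans 34859823 to 34864984 of chromosome 18 (GRCm38). BALB/c replicates 1 to 3 were at 2012, 1738 and 1604 CPM, and SKG replicates 1 to 3 at 964, 977 and 885 CPM. All SKG libraries were lower than all BALB/c libraries, and the SKG libraries lay close together. The means were 1784 ± 208 and 942 ± 49.8 CPM (SD, n = 3), a log2 fold change of SKG over BALB/c of -0.92 with a standard error of 0.13 and a 95% interval from -1.23 to -0.61. By unadjusted p (0.000254) it was number 7 of all genes tested, but the adjusted p from edgeR was 0.447 and it was not called. DESeq2 called it (adjusted p = 0.000216). Without BALB/c replicate 1 and SKG replicate 3 the log2 fold change was -0.77. In bulk RNA, fewer cells with Egr1 transcripts and fewer transcripts per cell cannot be told apart.

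The spread of Egr1 between libraries of one genotype was small. Its standard deviation within a genotype was 0.13 on the log2 CPM scale, which is percentile 1.7 of the genes tested, whose median was 0.64. The two-sided exact permutation test on Egr1 alone gave p = 0.1, the smallest that 3 libraries against 3 allow.

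Egr2 lies on chromosome 10 from 67535475 to 67542188. BALB/c replicates 1 to 3 were at 1546, 1097 and 1408 CPM, and SKG replicates 1 to 3 at 883, 956 and 493 CPM. Here too the genotypes did not overlap, but the gap was narrow, since the highest SKG library was close to the lowest BALB/c library. The log2 fold change was -0.80 with a standard error of 0.27 and a 95% interval from -1.45 to -0.14 (edgeR, adjusted p = 0.834). Neither edgeR nor DESeq2 called Egr2 (DESeq2 adjusted p = 0.437). The lowest library, SKG replicate 3, moved the estimate most: without it the log2 fold change was -0.54, and without that library and BALB/c replicate 1 it was -0.44. Among all genes tested, 7.12% were lower in each SKG library than in any BALB/c library, and 2.38% were lower in SKG at an unadjusted p under 0.05. Egr1 and Egr2 were the 2 of the 5 members for which both held, while 6.77% of genes were higher in every SKG library and 0 members were.

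Egr3, which acts alongside Egr2 in activated T cells, was almost absent from these libraries. It lies on chromosome 14 from 70077203 to 70082614. BALB/c replicates 1 to 3 held 2, 0 and 45 of its reads and SKG replicates 1 to 3 held 78, 19 and 45, which makes 189 in all against 258675 for Egr2. The highest level was 1.94 CPM, in SKG replicate 1, and the 0 reads of BALB/c replicate 2 allow up to 0.0809 CPM when up to 3 reads are taken as compatible with a count of 0. The genotypes overlapped. The fitted log2 fold change of 1.80 had a standard error of 1.76 and a 95% interval from -2.42 to 6.01 (edgeR, adjusted p = 0.991), and without BALB/c replicate 3 it was 5.47, since the remaining BALB/c libraries are at or near 0.

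Egr3 shared no read-length sequence with another annotated gene. Of 4398 different stretches of 50 bases in its annotated transcripts, the length of the reads, 0 occurred in a transcript of another gene, and no annotated exon of another gene overlapped its exons. The same held for Egr1, Egr2 and Egr4.

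Egr4, on chromosome 6 from 85511121 to 85513589, was found in every BALB/c library, with 1318, 851 and 820 reads. In SKG it had 0, 897 and 0 reads. One SKG pool was thus at the BALB/c level, 23.1 CPM against 18.2 to 32.0 CPM, and the others were below 0.0830 CPM, which is the higher of their limits for a count of 0. The fitted log2 fold change of -1.66 had a standard error of 2.40 (edgeR, adjusted p = 0.991).

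**Figure D1:**
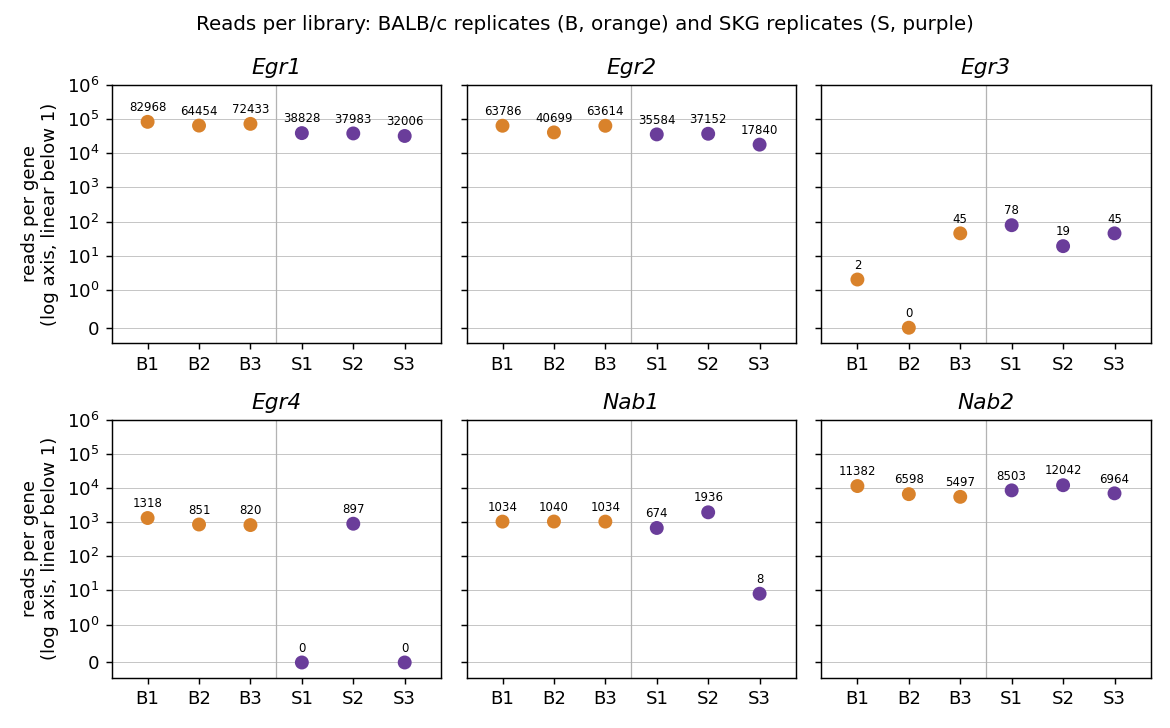
Reads per library for the 3 Egr members, Egr4 and both Nab genes, on an axis that is logarithmic above 1 read and linear below, with 1 point per library (orange, BALB/c replicates B1 to B3; purple, SKG replicates S1 to S3). Egr1 and Egr2 stand highest, with fewer reads in each SKG library, whereas Egr3 never exceeds 78 reads. Egr4 has 0 reads in SKG replicates 1 and 3, and Nab1 has 8 in SKG replicate 3.

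Nab1 lies on chromosome 1 from 52457294 to 52500679. BALB/c replicates 1 to 3 were at 25.1, 28.0 and 22.9 CPM, with 1034, 1040 and 1034 reads. In SKG it was at 16.7, 49.8 and 0.221 CPM, with 674, 1936 and 8 reads. The BALB/c libraries were nearly equal, and the SKG libraries spanned a 225-fold range on both sides of them. The log2 fold change of -0.19 had a standard error of 1.37 and a 95% interval from -3.47 to 3.10 (edgeR, adjusted p = 0.999), so that neither a difference nor its direction could be read. Without SKG replicate 3 it turned to 0.41, and without SKG replicate 2 it was -1.56.

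Such near-complete loss of a transcript in one library was also seen for other genes. Of 8793 tested genes with at least 500 reads in some SKG library, 613 (6.97%) had at most 10 reads in another SKG library, and in BALB/c it was 523 of 8893 (5.88%). Nab1 and Egr4 are among the SKG genes so counted. Each library came from about 1000 cells after preamplification, and the part of that in these losses was not tested.

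Nab2 lies on chromosome 10 from 127660918 to 127668568. BALB/c replicates 1 to 3 were at 276, 178 and 122 CPM, and SKG replicates 1 to 3 at 211, 309.8 and 193 CPM. The genotypes overlapped, and the lowest libraries were both BALB/c. The log2 fold change was 0.31 with a standard error of 0.34 and a 95% interval from -0.50 to 1.12 (edgeR, adjusted p = 0.991). The interval therefore reaches from a fold change of 0.706 to 2.18, and for Egr1 it reaches from 0.426 to 0.655. Without BALB/c replicate 1 and SKG replicate 3 the log2 fold change of Nab2 was 0.81 (edgeR, adjusted p = 0.81). For Nab2 these were the highest BALB/c and the lowest SKG library, so the direction of this change follows from leaving them out.

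Reads on Nab2 are counted over part of its exons. In the annotation used here 42.2% of its 2941 exonic bases are overlapped by genes of the opposite strand, 1050 bases by the antisense transcript Gm16229, 151 by Nemp1 and 40 by Stat6. The counting did not use strand, so that reads there cannot be assigned. Gm16229 had at most 9 reads in any library. Stat6, the STAT factor of IL-4 signalling, had 11845 to 15712 reads in BALB/c and 14039 to 17217 in SKG, or 322 ± 56.9 and 412 ± 28.0 CPM (SD, n = 3), with a log2 fold change of 0.35 (standard error 0.17, edgeR adjusted p = 0.952).

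**Figure D2:**
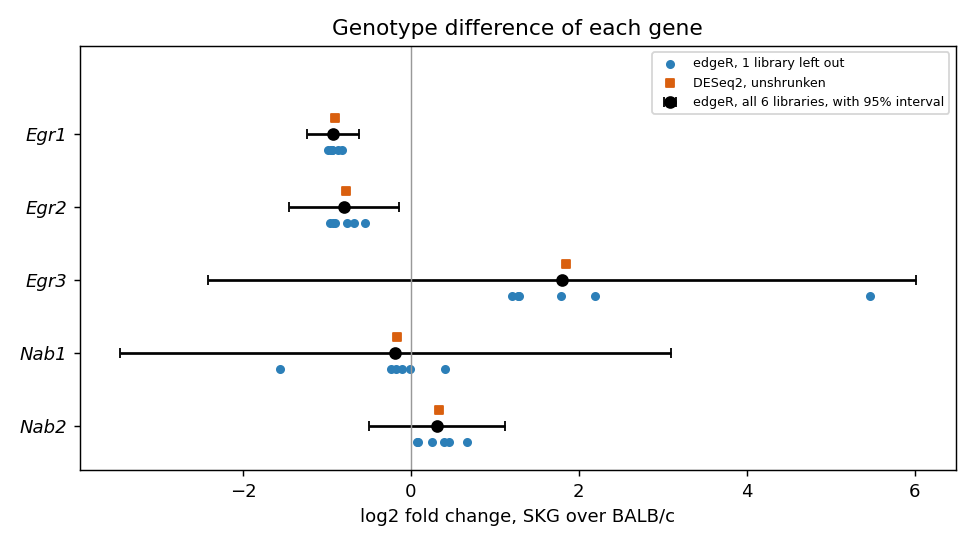
Log2 fold change of SKG over BALB/c for each gene. Black points are edgeR estimates from all 6 libraries with 95% intervals, blue points the estimates with 1 library left out and orange squares DESeq2 estimates without shrinkage. The intervals of Egr1 and Egr2 lie below 0 and those of Egr3, Nab1 and Nab2 include it.

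Levels of different genes were compared as CPM per kilobase of exon. In BALB/c the order was Egr1 at 398 ± 46.4, Egr2 at 397 ± 67.7, Nab2 at 65.2 ± 26.5, Nab1 at 6.18 ± 0.630 and Egr3 at 0.0790 ± 0.127 CPM per kilobase (SD, n = 3). In SKG it was Egr2 at 229 ± 73.2, Egr1 at 210.1 ± 11.1, Nab2 at 80.9 ± 21.4, Nab1 at 5.43 ± 6.16 and Egr3 at 0.278 ± 0.164 (SD, n = 3). Egr1 and Egr2 did not differ beyond their spread in either genotype. Nab2 was below both in every library, and Nab1 below Nab2. Nab1 and Egr3 were apart in BALB/c, but in SKG replicate 3 Nab1 was at 0.0540 and Egr3 at 0.282 CPM per kilobase. Among 11937 tested genes with an annotated length, Egr1 and Egr2 ranked 62 and 64 in BALB/c and 133 and 119 in SKG, whereas Egr3 ranked 11739 and 11256.

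Egr1 and Egr2 stood in a similar proportion in both genotypes. The ratio of Egr2 to Egr1, on the scale of CPM per kilobase, was 1.01, 0.833 and 1.16 in the BALB/c replicates and 1.21, 1.29 and 0.736 in the SKG replicates. The genotypes overlapped, and SKG replicate 3 had the lowest ratio of all.

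The ratios of Nab2 to Egr1 and to Egr2 were higher in SKG, although Nab2 itself overlapped between the genotypes. The ratio of Nab2 to Egr1 was 0.209, 0.156 and 0.116 in the BALB/c replicates and 0.334, 0.483 and 0.332 in the SKG replicates. The ratio of Nab2 to Egr2 was 0.206, 0.187 and 0.0998 in BALB/c and 0.276, 0.374 and 0.451 in SKG. For both ratios every SKG library lay above every BALB/c library. The lower Egr1 and Egr2 levels already described enter these ratios, and any gene of unchanged level would also have a higher ratio to them in SKG. The separation is therefore not a trait of Nab2, and the ratios are given as a description with no test. When only the 1700 exonic bases of Nab2 free of other genes were used as its length, the ratio of Nab2 to Egr1 averaged 0.277 ± 0.0811 in BALB/c and 0.663 ± 0.150 in SKG (SD, n = 3), in place of 0.160 ± 0.0469 and 0.383 ± 0.0869.

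**Figure D3:**
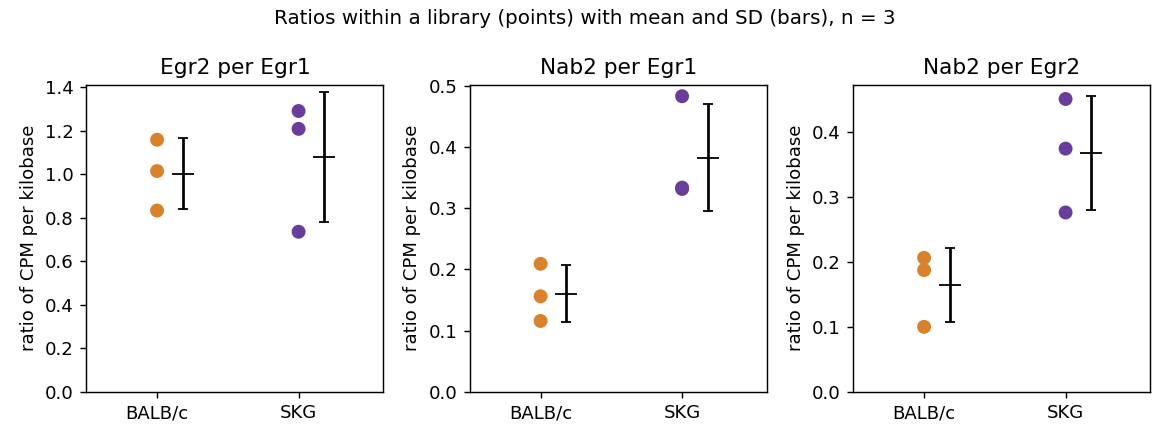
Ratios of CPM per kilobase within each library (orange, BALB/c; purple, SKG), with the mean and SD of 3 libraries beside the points, on axes that start at 0. The ratio of Egr2 to Egr1 overlaps between genotypes, and both ratios with Nab2 as numerator are higher in each SKG library.

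Genes around the Egr and Nab pair were followed in 4 lists. Most genes named from them were picked by low p, so separate libraries partly follow from the choice. Over all genes tested, 7.12% were lower in every SKG library and 6.77% higher. Of 13 genes known as Egr targets, 9 had enough reads to be tested and 0 were called by edgeR, with a median log2 fold change of 0.18 against -0.02 over all genes tested. Without SKG replicate 3 the median of the list was -0.07. Zbtb16, which encodes PLZF, was at 151 ± 28.0 CPM in BALB/c and 119 ± 41.8 in SKG (SD, n = 3). The genotypes overlapped, and the log2 fold change was -0.34 (standard error 0.30). Il2rb, which encodes the CD122 chain of the IL-15 receptor, was at 224 ± 68.0 and 239.5 ± 50.7 CPM. Id3, an inhibitor of E proteins, was at 680 ± 121 and 929 ± 234 CPM (log2 fold change 0.45, standard error 0.22, edgeR adjusted p = 0.952).

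Tnfrsf9, the costimulatory receptor 4-1BB, had the lowest unadjusted p among the targets. The BALB/c libraries held 8595, 5971 and 6455 of its reads, and the SKG libraries 2364, 2490 and 2612. The genotypes were far apart, at 171 ± 33.8 and 65.0 ± 6.82 CPM (SD, n = 3), a log2 fold change of -1.39 with a standard error of 0.22 (edgeR, adjusted p = 0.617). It was the target that DESeq2 called. Dgkz, a diacylglycerol kinase that dampens TCR signals, was on the other side, at 1038 ± 182 and 1368 ± 106 CPM without overlap (log2 fold change 0.40, standard error 0.16), and Itch, a ubiquitin ligase, had a log2 fold change of 0.36 (standard error 0.23). Cblb, Dgka and Socs1, the remaining tested targets, had overlapping libraries, with log2 fold changes of -0.40, 0.18 and 0.24. The 4 untested targets had too few reads in most libraries. Fasl had 0 reads in all libraries, Lag3 at most 7 and Cdkn1a at most 75, and Socs3 had 727 reads in BALB/c replicate 1 and at most 28 elsewhere.

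The 14 genes listed as inducers of Egr transcription were all tested and 0 were called by edgeR, with a median log2 fold change of 0.28. Whether each listed gene induces Egr transcription in these cells was not tested. Nfatc1 and Nfatc3, calcium-dependent factors, were higher in each SKG library. Nfatc1 was at 1167 ± 11.5 CPM in BALB/c and 2110 ± 453 in SKG (SD, n = 3). The difference was 0.85 on the log2 scale (standard error 0.17, edgeR adjusted p = 0.617), and DESeq2 called it. Nfatc3 was at 128 ± 36.8 and 224 ± 50.7 CPM (log2 fold change 0.81, standard error 0.28). Elk3, an Ets-family partner of serum response factor, was lower in each SKG library, at 533 ± 14.3 and 433 ± 58.3 CPM (log2 fold change -0.30, standard error 0.14, edgeR adjusted p = 0.952). Map2k2, a MAP kinase kinase, had a log2 fold change of 0.26 (standard error 0.15).

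Other immediate-early genes did not share one direction. Of 18 listed, 14 were tested and 0 were called by edgeR, 6 with a higher and 8 with a lower estimate in SKG and a median log2 fold change of -0.16, which was 0.14 without BALB/c replicate 1. Ier2, a nuclear immediate-early protein, resembled Egr1 in its separation. Its counts were 44184, 29638 and 30157 reads for BALB/c against 12825, 11553 and 9615 for SKG, with a log2 fold change of -1.53 (standard error 0.20, edgeR adjusted p = 0.380), and DESeq2 called it. Zfp36, which promotes decay of AU-rich mRNAs, was at 214 ± 15.9 and 119 ± 49.0 CPM (SD, n = 3), lower in each SKG library (edgeR, adjusted p = 0.834). The orphan receptor gene Nr4a2 was also lower in each SKG library, with 7108, 4078 and 2451 reads against 975, 1842 and 93. Jun, a component of AP-1, was higher in each SKG library, at 31.3 ± 14.4 CPM in BALB/c and 72.8 ± 30.0 in SKG (SD, n = 3; edgeR, adjusted p = 0.912). Fosb, Fosl2, Ier3 and Atf3 had at most 89 reads in any library and were not tested.

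The 13 NuRD subunits, the partners through which Nab proteins repress, were all tested, with 0 called and a median log2 fold change of 0.16. Their estimates lay between -0.15 and 0.85. Gatad2a was higher in each SKG library, at 209 ± 39.4 CPM in BALB/c and 270.0 ± 8.45 in SKG (SD, n = 3; log2 fold change 0.37, standard error 0.18). Gatad2b, Mbd3 and Mbd2, which followed it in the order of p, had log2 fold changes of 0.57 (standard error 0.44), 0.17 (standard error 0.16) and 0.85 (standard error 0.87). DESeq2 called 0 genes of this list.

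**Figure D4:**
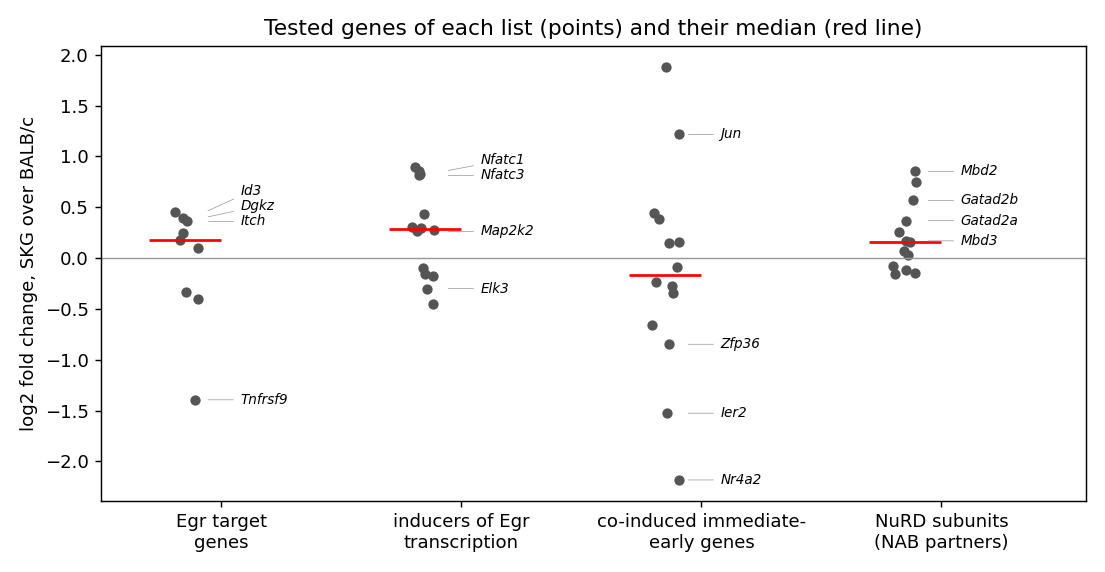
Log2 fold change of SKG over BALB/c for each tested gene of the 4 lists (points), the median of a list (red line) and the names of the 4 genes with the lowest p in each. Tnfrsf9, Ier2 and Nr4a2 have the lowest values, between -2.18 and -1.39, and none of the genes shown was called by edgeR.

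The genes with the most similar profile to each member were found among 10324 tested genes with a mean of at least 100 reads, by the root mean square difference of centred log2 CPM over the 6 libraries. Low or high levels that they share with the member in a library follow from this choice. Acot7, an acyl-CoA thioesterase gene, was nearest to Egr1 at a difference of 0.0749, with 212, 194 and 178 CPM in BALB/c and 103, 96.0 and 102 in SKG. The uncharacterised 1110004E09Rik followed at 0.0997. For Egr2 the nearest were Eno3, an enolase gene, at 0.123 and Gar1, a small nucleolar ribonucleoprotein gene, at 0.128, and both had their lowest level in SKG replicate 3. Bex2 and Nol11 were nearest to Nab2 at 0.137 and 0.140. Pvr and Exog were nearest to Nab1 at 0.195 and 0.245, and like Nab1 they were almost lost from SKG replicate 3, at 0.138 and 0.470 CPM. For Egr3 the nearest were Zfp799 at 0.527 and Eml5 at 0.656, larger differences than for the other members, but its own levels also varied more than those of Egr1, Egr2 and Nab2, with a root mean square of 1.97 around its mean.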

How the data were processed

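The authors aligned 50-nt single-end reads with HISAT2 2.1.0 to GRCm38 and counted reads over exons with featureCounts (Subread 1.4.4), unstranded, keeping mapping qualities from 10 upwards, on Ensembl release 85. The deposited values used here are these raw counts per gene symbol. A second deposited table holds the authors' own DESeq2 comparison and was not used. Labels and methods name different amplification kits, and which was used is not settled here.

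From the counts, genes were filtered with filterByExpr, normalised with TMM and tested with edgeR 4.0.16 in R 4.3.3 without covariates. DESeq2 1.42.0, limma 3.58.1, other scalings and filters, replicate blocks and left-out libraries were alternatives. The edgeR, DESeq2 and limma-voom fits were run on simulated data with a single dispersion for all genes and no lost transcripts. That run checks the code and cannot say which fit suits these data. Standard errors are the log2 fold change divided by the root of F, and 95% intervals use the moderated degrees of freedom. Libraries totalled 37176544 to 43115544 reads. PCR copies cannot be told from molecules, so limits for 0 reads cover counting error only. Positions, lengths and overlaps come from GENCODE M21 (GRCm38), a later release than the authors used.

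Residuals of libraries with the same number correlated between -0.145 and -0.00962 for the titles and between -0.0384 and 0.00289 for the library numbers, so the libraries were not treated as pairs. Named genes are the members and Egr4, Zbtb16, Il2rb and Id3, the 4 lowest p of each list, genes overlapping a member and the 2 nearest profiles per member. Cd3e, Cd69, Cd24a, Cd8a and Cd8b1 were added as checks of the sort. Other marker genes and genes with too few reads were named to account for their lists. Members, lists and rules were chosen with earlier results of these data known.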

Additional observations from a re-analysis of the deposited data

How the results depend on the processing

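Of the 5 members, 0 were called by edgeR in any setting run. DESeq2 called Egr1, at a log2 fold change of -0.90 without shrinkage and -0.89 with shrinkage, and none of the other members. Nab1 reversed to 0.41 without SKG replicate 3 and to 0.40 without that library and BALB/c replicate 1, the latter chosen after seeing the data. When each library was left out once, log2 fold changes ranged from -0.99 to -0.82 for Egr1, from -0.96 to -0.54 for Egr2, from 1.20 to 5.47 for Egr3, from -1.56 to 0.41 for Nab1 and from 0.08 to 0.67 for Nab2. The stricter filter of 50 reads in 3 libraries removed Egr3. In limma-voom Egr3 was at 3.47 and Nab1 at -1.99. The cause was not tested.

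Over all genes edgeR called 0, DESeq2 370 without and 231 with shrinkage, and edgeR without a filter 2. An FDR of 0.05 and no fold threshold also gave 0. Both DESeq2 fits called 1 gene each among Egr targets, inducers of Egr transcription and immediate-early genes, where edgeR called 0. With the replicate block by title number, edgeR called 0 genes and Egr1 was at -0.92, Egr2 at -0.84, Egr3 at 4.08, Nab1 at -1.43 and Nab2 at 0.36. With the library number as replicate block it called 0 as well, with Egr1 at -1.01, Egr2 at -0.92, Egr3 at 5.14, Nab1 at -2.89 and Nab2 at 0.14. Only library numbers 2 and 3 occur in both genotypes, so BALB/c replicate 3 and SKG replicate 1 add nothing to these estimates. Whether equal numbers mark pools that were prepared together was not settled. On the log2 scale Nab2 per Egr1 was -2.04 over the union of exons and -1.25 over exons free of other genes, a setting added later. With 189 reads in all for Egr3 and 8 to 1936 reads per SKG library for Nab1, a difference was not detected for either. What size of difference could have been detected was not tested.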
